A study of Mus musculus with 21 samples.

Results

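Multipotent progenitors (MPP) were compared with long-term haematopoietic stem cells (LT-HSC) in mice whose retinoid X receptors (RXR) were intact. The comparison rests on 6 of the 21 RNA-seq libraries of the study, chosen by their labels alone: 3 of LT-HSC and 3 of MPP, all from batch 1. Both groups came from bone marrow of mice homozygous for floxed Rxra and Rxrb alleles (Rxrabfl/fl) with no Cre in the label, so both receptors could still be made. No age or other treatment is given in the labels, cells of pooled animals were sorted, and nothing says whether libraries of one group came from separate pools. The p-values therefore measure the spread between libraries of a group, which may be technical. Per the labels' protocols the MPP were MPP3 and MPP4 cells together, and the RNA was amplified from 5 ng before sequencing. A further 6 libraries of batch 1, LT-HSC and MPP of mice with the same floxed alleles and Cre driven by the blood-specific Vav1 promoter (RXR knockouts, 3 libraries each), share none of these samples and are used as a second set. All 12 libraries of batch 1 entered the same fit. Its estimate of the spread between libraries thus comes from both sets, and their calls are not independent. LT-HSC of Vav1-Cre mice without floxed alleles (3 libraries, batch 2) are quoted beside a few results.

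LT-HSC sit at the top of the blood system, divide rarely and can rebuild all blood lineages after transplantation for the life of the host. MPP are their near offspring: they cycle more, have lost long-term self-renewal, and already favour particular lineages, with MPP3 leaning to myeloid and MPP4 to lymphoid cells. In mouse marrow they are separated by surface proteins, above all CD150 (Slamf1) on LT-HSC, CD48 on most MPP, and the cytokine receptor Flt3 on the lymphoid-leaning MPP.

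Expression was deposited as TPM, an abundance per transcript length that is relative to the other transcripts of its library. Of 28987 gene identifiers, 14839 reached 1 TPM in at least 3 of the 12 libraries of batch 1 and were tested. LT-HSC library 2 stood apart: 51.8% of its TPM scale lay in a single gene identifier, against 20.9% to 24.2% in the other 5 libraries, and its size factor was 0.613 against 0.881 to 1.01. For that reason a gene is said here to have risen or fallen only where limma's Benjamini-Hochberg adjusted p was under 0.05, with the same sign, on the deposited TPM and again after each library was divided by its size factor. The adjusted p printed is the larger of the 2, and log2 changes (MPP minus LT-HSC) with their standard errors (SE) are on the log2(TPM + 1) scale, which understates the change of low genes.

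The labels were checked first against 4 genes that define these cells. Slamf1 (chr1:171767131-171801184 in GRCm38) stood at 16.4, 9.59 and 9.32 TPM in LT-HSC libraries 1, 2 and 3 and at 0.181, 0.244 and 0.637 TPM in MPP libraries 1, 2 and 3. Its near neighbour Cd48 (chr1:171681245-171705258) ran the other way, with 1.18, 0.633 and 3.11 TPM in LT-HSC and 72.2, 82.4 and 100.03 TPM in MPP. Flt3, the receptor for the growth factor Flt3 ligand, stood at 6.57, 2.53 and 4.38 TPM in LT-HSC and at 123, 99.7 and 88.2 TPM in MPP. All 4 markers separated the groups without overlap, since Dntt, the template-free DNA polymerase of early lymphoid cells, was at 0.114, 0.246 and 0.503 TPM in LT-HSC and at 216, 176 and 143 TPM in MPP. The log2 change was -3.21 for Slamf1 (SE 0.23, adjusted p = 1.94e-07, limma), 5.12 for Cd48 (SE 0.29, adjusted p = 7.77e-08), 4.30 for Flt3 (SE 0.26, adjusted p = 4.22e-08) and 7.11 for Dntt (SE 0.20, adjusted p = 2.76e-10), so the defining markers go with the labels of all 6 libraries. Slamf1, Cd48 and Flt3 are proteins by which such cells are commonly sorted, and their differences are therefore no finding.

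Other sort markers behaved unequally. Cd34, a sialomucin that mouse LT-HSC largely lack, rose from 29.7 ± 12.9 to 164 ± 11.97 TPM (mean ± SD, n = 3 each), and Procr, the protein C receptor EPCR of LT-HSC, fell from 37.4 ± 19.7 to 7.70 ± 1.57 TPM. Kit, the stem cell factor receptor, was at 126 ± 12.9 TPM in LT-HSC and 114 ± 18.6 TPM in MPP (adjusted p = 0.59, limma), and Ly6a (Sca-1) was at 57.8 ± 33.7 and 52.0 ± 13.05 TPM (adjusted p = 0.96). Neither passed the test.

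Across all genes, 1660 (11.2% of those tested) were higher and 834 (5.62%) were lower in MPP, so 66.6% of the calls were higher. That split depends on the scale: the deposited TPM alone gave 2305 higher and 834 lower genes (73.4% higher), and the rescaled TPM alone 1668 and 1850 (47.4% higher). The median log2 change of all genes was 0.26 on the deposited and 0.0073 on the rescaled scale, and a list whose median lies near the first value has moved little against the rest. Counts without MPP library 1 or without MPP library 2 were 1030 and 1018 higher genes. For scale, all MPP libraries lay above all LT-HSC libraries in 31.1% of genes and below them in 8.55%. The counts of each list below are to be read beside the 11.2% higher and 5.62% lower of all genes. Fewer cells expressing a gene and less RNA of it per cell cannot be told apart in such bulk samples.

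**Figure D1:**
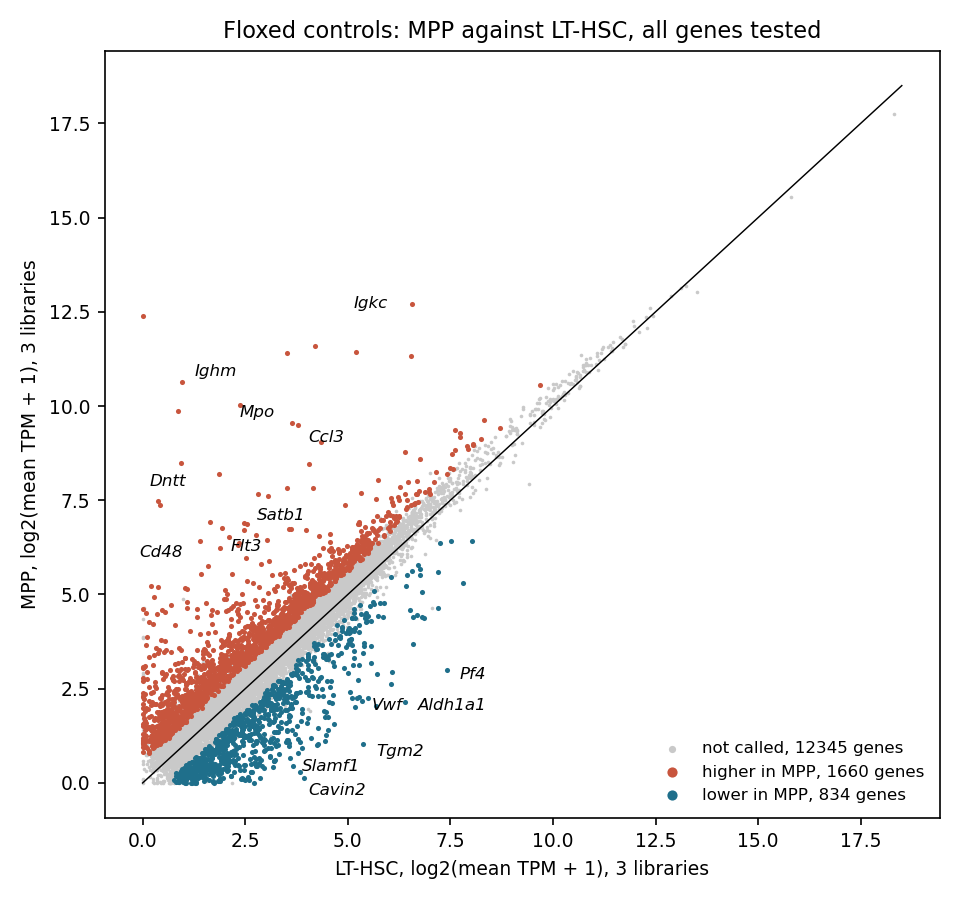
Mean expression of all 14839 genes tested in MPP (vertical axis) against LT-HSC (horizontal axis), each as log2(mean TPM + 1) over 3 floxed control libraries, with genes higher in MPP in red (1660), lower in blue (834) and not called in grey. Dntt, Mpo and Ccl3 lie far above the line of equal expression and Tgm2, Pf4 and Aldh1a1 far below it.

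Genes known for the identity of LT-HSC were lower in MPP. Of 20 surface proteins listed for LT-HSC, 12 fell in MPP and 1 rose, and of 20 nuclear and cytoplasmic genes 16 fell and none rose, where 5.62% of all genes tested fell. The 2 lists had median log2 changes of -0.94 and -1.68, beside 0.26 over all genes. Tek, the receptor of the niche factor angiopoietin-1, fell from 10.4, 11.02 and 10.96 to 3.77, 2.55 and 1.07 TPM, with no overlap (log2 change -1.85, SE 0.26, adjusted p = 0.00015, limma). Pdzk1ip1, a small membrane protein used as a reporter of LT-HSC, fell from 90.5, 48.2 and 61.1 to 6.67, 6.58 and 6.77 TPM, and its 3 MPP values were nearly equal.

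The adhesion proteins Esam, Itgb3, Neo1 and Clec1a, and the cation channel Trpc6, shared this course. Neo1, a receptor for netrins, was the most nearly lost of them, at 6.20, 4.15 and 2.55 TPM in LT-HSC and 0.125, 0.0655 and 0.0511 TPM in MPP. Other surface genes of the list did not pass: Itga6 had 80.2 ± 13.6 and 80.8 ± 18.4 TPM, Cd9 had 35.3 ± 9.59 and 23.1 ± 1.95 TPM (adjusted p = 0.056, limma), and Cd81 154 ± 65.1 and 147 ± 8.401 TPM. Cd9 passed without LT-HSC library 2, with an adjusted p of 0.0013. Thy1 was the single member called higher, from 1.68, 1.11 and 2.38 to 3.38, 4.07 and 4.13 TPM, and its adjusted p of 0.025 rose to between 0.0698 and 0.0852 in the fits without LT-HSC library 1, LT-HSC library 2, MPP library 2 or MPP library 3. Cd81 was named after its values were seen.

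The genes with the largest falls were of diverse function. Tgm2, a transglutaminase, had the largest fall of all called genes by the naming rule, from 58.0, 36.1 and 28.1 to 1.29, 0.967 and 0.901 TPM (log2 change -4.29, SE 0.22, adjusted p = 2.97e-08, limma). Aldh1a1, which oxidises retinaldehyde to retinoic acid, fell from 107, 61.1 and 82.8 to 2.01, 4.40 and 3.99 TPM. Sult1a1, a sulfotransferase, fell from 78.3, 44.7 and 27.9 to 3.76, 2.70 and 2.95 TPM. For these 3 genes the lowest LT-HSC library lay far above the highest MPP library. The microtubule protein Clip3, the multimerin Mmrn1, the gonadotropin receptor Lhcgr and the blood group protein Art4 had log2 changes of -3.41, -3.39, -3.28 and -3.04. Lack of overlap between the groups was a condition of the rule that named the largest falls, and is no result for the genes of this paragraph.

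Transcription factors of the list were divided. Mllt3, a chromatin reader of the super elongation complex that maintains stem cells, had 145, 86.7 and 98.6 TPM in LT-HSC and 18.8, 17.8 and 24.2 TPM in MPP (log2 change -2.36, SE 0.21, adjusted p = 1.37e-06, limma). Mecom (Evi1), a zinc finger factor required by LT-HSC, fell less, from 84.8 ± 17.1 to 36.6 ± 9.35 TPM. Hoxb5, a reporter gene for long-term repopulating cells, fell from 2.54, 0.943 and 1.02 to 0.0949, 0.250 and 0.1499 TPM, and Fgd5, another such reporter, from 13.6 ± 3.97 to 2.14 ± 0.506 TPM. Hlf (92.3 ± 39.7 and 64.2 ± 10.8 TPM, adjusted p = 0.19) and Meis1 (92.4 ± 24.9 and 73.9 ± 3.49 TPM, adjusted p = 0.33) did not pass on the deposited scale in limma. Both passed on the rescaled scale alone, with adjusted p-values of 0.012 and 0.0085.

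In the wider list of 30 blood transcription factors, 10 fell (33.3%) and 2 rose (6.67%), where 5.62% of all genes fell and 11.2% rose. The shared core of stem and progenitor cells did not pass the test: Runx1 had 26.5 ± 8.12 and 33.6 ± 1.19 TPM, Lyl1 42.5 ± 14.3 and 52.3 ± 9.89 TPM, Erg 70.9 ± 28.2 and 69.1 ± 6.08 TPM, and Lmo2 221 ± 78.9 and 186 ± 19.3 TPM. Tal1, a bHLH factor of that core, did fall, from 30.2 ± 9.29 to 14.8 ± 1.98 TPM (log2 change -0.94, SE 0.22, adjusted p = 0.0068, limma). Tcf15, a bHLH factor of quiescent stem cells, fell from 12.4, 5.35 and 6.89 to 0.821, 0.441 and 0.250 TPM, and Id1, a bHLH antagonist, from 68.8, 16.7 and 46.5 to 3.91, 4.08 and 3.29 TPM. Rora and Nfia also fell, by 1.25 and 1.60 on the log2 scale. The factors that rose were Tcf4, from 32.4 ± 6.35 to 60.9 ± 8.55 TPM, which works in B-lymphoid and dendritic cells, and Bcl6, from 2.41 ± 0.225 to 5.99 ± 0.758 TPM.

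**Figure D2:**
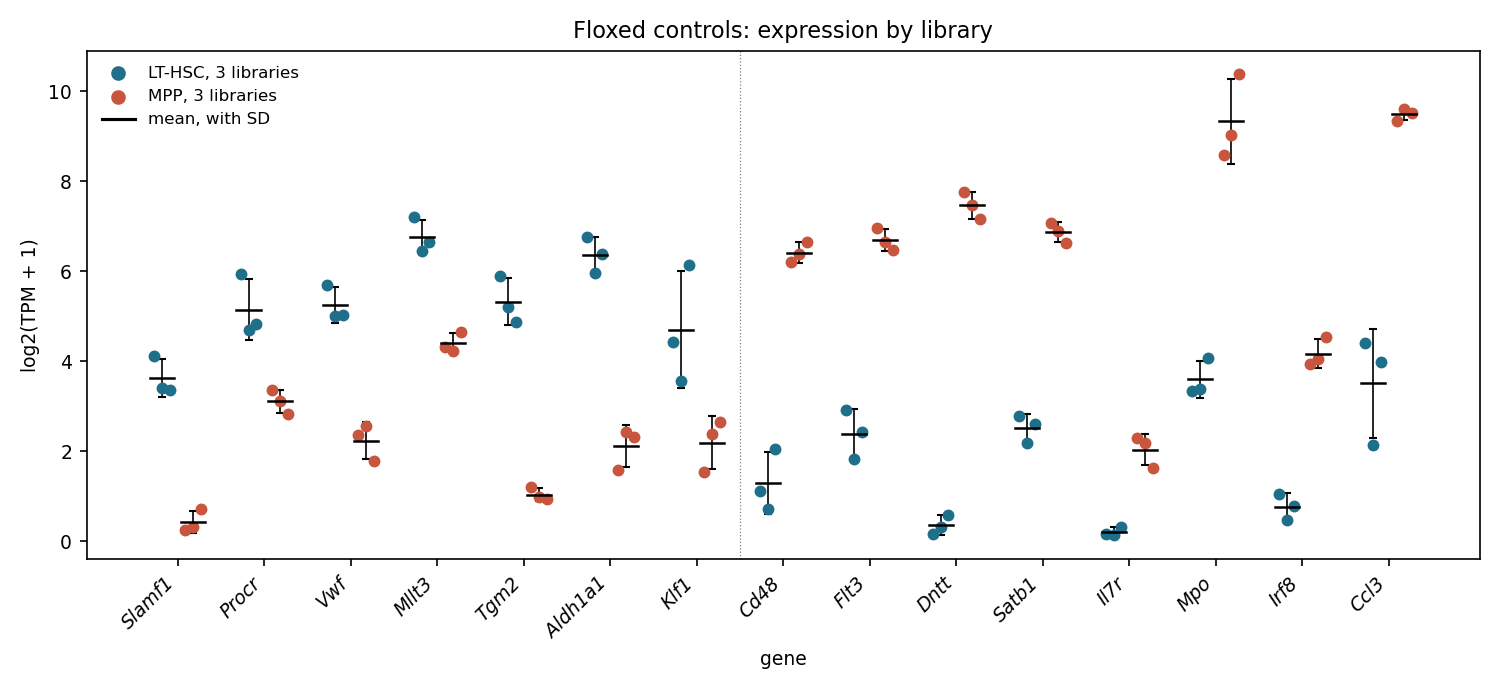
Expression of 15 genes as log2(TPM + 1) in each of the 3 LT-HSC (blue) and 3 MPP (red) floxed control libraries, with the mean and SD in black; genes lower in MPP are left of the dotted line and genes higher in MPP right of it. The groups do not overlap for any gene shown, but Tgm2, Aldh1a1, Mpo and Ccl3 are among the largest changes, named with no overlap as a condition. LT-HSC library 3 is the highest for Klf1, at 68.8 TPM.

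Genes of megakaryocytes and platelets were lower in MPP as well. Of 20 tested members 15 fell and 1 rose, and the list's median log2 change was -1.42. This list shares Vwf and Itgb3, among others, with the LT-HSC lists. Vwf, the von Willebrand factor that marks platelet-biased stem cells, stood at 50.9, 31.2 and 31.4 TPM in LT-HSC and at 4.13, 4.89 and 2.44 TPM in MPP (log2 change -3.01, SE 0.24, adjusted p = 5.27e-07, limma). Pf4, the platelet chemokine, fell from 142, 71.9 and 299.8 to 8.02, 4.31 and 8.42 TPM, and Cavin2 (Sdpr), a coat protein of caveolae, from 17.9, 13.7 and 11.2 to 0.166, 0.0473 and 0.0515 TPM. The lowest LT-HSC library exceeded the highest MPP library for each, but Pf4 and Cavin2 are among the largest falls, named with no overlap as a condition. Plek, a protein kinase C substrate of platelets and leukocytes, ran against its list, with 37.8 ± 1.56 TPM in LT-HSC and 115 ± 8.88 TPM in MPP (log2 change 1.58, SE 0.17, adjusted p = 6.46e-05, limma). Summed over the 22 listed genes, TPM were 968, 538 and 891 in LT-HSC and 321, 299.7 and 332 in MPP, with Gp6 and Tubb1, genes of mature megakaryocytes and platelets, under 1 TPM in all 6 libraries. The part of megakaryocytes or platelets in this difference was not tested.

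Erythroid genes fell too, but one stem cell library carried much of their level. Of 18 tested members 14 fell and none rose (median log2 change -1.87), and 13 fell without LT-HSC library 3. Klf1, the erythroid master regulator, stood at 20.4, 10.8 and 68.8 TPM in LT-HSC and at 1.89, 4.23 and 5.28 TPM in MPP (log2 change -2.51, SE 0.47, adjusted p = 0.0017, limma). Car1, a carbonic anhydrase of erythroid progenitors, stood at 14.7, 11.8 and 81.8 TPM in LT-HSC and at 2.20, 5.80 and 3.41 TPM in MPP. For Epor, the erythropoietin receptor, values were 8.13, 4.82 and 25.2 TPM in LT-HSC and 0.708, 1.74 and 1.34 TPM in MPP. LT-HSC library 3 was the highest for each of these, and the groups still did not overlap. The listed genes summed to 609.9, 372 and 1083 TPM in LT-HSC and to 226, 210.0 and 207 TPM in MPP. Among RXR knockouts 6 of the 18 fell: Klf1 was at 5.84, 10.1 and 6.21 TPM in LT-HSC and 4.50, 4.75 and 3.26 TPM in MPP there, and the LT-HSC of Cre controls had 11.9, 7.37 and 12.6 TPM. No erythroid gene passed the test of a difference between genotypes. A part of erythroid progenitors in LT-HSC library 3 was not tested.

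Imprinted growth genes fell as a group. Of 11 tested, 7 fell and none rose, with a median log2 change of -1.15. Grb10, a growth factor receptor adaptor that restrains growth, fell from 25.2, 20.2 and 17.9 to 1.17, 1.501 and 1.61 TPM (log2 change -3.18, SE 0.18, adjusted p = 3.33e-08, limma). Ndn (necdin), a repressor of proliferation, fell from 12.6, 6.78 and 5.56 to 0.577, 0.359 and 0.673 TPM, and Cdkn1c (p57), the cell cycle inhibitor of resting stem cells, from 7.47, 4.54 and 3.27 to 0.561, 0.441 and 0.650 TPM. None of the 3 overlapped between groups, but Grb10 is among the largest falls, named with no overlap as a condition. Igf2, an embryonic growth factor, its scavenging receptor Igf2r, Phlda2 and Sgce were the others that fell, by 1.23, 1.15, 1.61 and 0.93 on the log2 scale. The call of Sgce was lost without MPP library 2 (adjusted p = 0.058). Mest, Impact, Peg12 and Nnat did not pass.

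Retinoid genes form the pathway nearest to the deleted receptors, which pair with the retinoic acid receptors. Of 13 tested members 6 fell (46.2%) and 2 rose (15.4%), where 5.62% of all genes fell and 11.2% rose (list median log2 change -0.58). Rarb, a receptor that is itself a retinoic acid target, stood at 3.22, 3.58 and 1.83 TPM in LT-HSC and at 0.437, 0.223 and 0.216 TPM in MPP (log2 change -1.56, SE 0.20, adjusted p = 0.00013, limma). Cyp26b1, an enzyme that degrades retinoic acid, stood at 3.43, 3.47 and 1.13 TPM in LT-HSC and at 0.0450, 0.0300 and 0.0272 TPM in MPP. The values of Aldh1a1 and Tgm2 stand above. In RXR knockouts Cyp26b1 was at 0.0434, 0.0277 and 0.226 TPM in LT-HSC, against 3.42, 3.84 and 1.24 TPM in the LT-HSC of Cre controls, and the difference between genotypes did not pass. Dhrs3, which reduces retinaldehyde back to retinol, rose from 4.36, 3.75 and 3.57 to 25.2, 20.9 and 21.95 TPM (log2 change 2.27, SE 0.18, adjusted p = 2.44e-06, limma). By RNA level, Aldh1a1, which makes retinoic acid, and Cyp26b1, which clears it, were thus both higher in LT-HSC. Dhrs3, which lowers its precursor, was higher in MPP. These are single genes and do not place the pathway as a whole. Rarg (lower) and Rara (higher) were called, but Rarg lost its call without LT-HSC library 1, LT-HSC library 2, MPP library 2 or MPP library 3 (adjusted p from 0.0505 to 0.119), and Rara without LT-HSC library 1, LT-HSC library 2, MPP library 1 or MPP library 2 (0.056 to 0.155).

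The receptors themselves did not pass. Rxra stood at 5.17, 3.87 and 2.37 TPM in LT-HSC and at 2.02, 2.14 and 2.19 TPM in MPP (log2 change -0.58, SE 0.21, adjusted p = 0.058, limma), and it passed without LT-HSC library 3, with an adjusted p of 0.0079. Rxrb stood at 14.9, 7.52 and 14.04 TPM in LT-HSC and at 15.8, 17.99 and 18.8 TPM in MPP (adjusted p = 0.21). Of 8 nuclear receptors that pair with RXR, 2 fell and none rose: Vdr, the vitamin D receptor, from 11.3 ± 3.33 to 3.99 ± 0.384 TPM, and Thrb, a thyroid hormone receptor, from 1.37 ± 0.479 to 0.345 ± 0.102 TPM. Nr1h2 (LXR beta) was at 46.6 ± 2.87 and 47.0 ± 2.82 TPM. Among transporters and detoxifying enzymes, 5 of 19 fell and none rose. Those that fell included the dye and drug pumps Abcg2, from 34.8 ± 4.34 to 15.5 ± 1.02 TPM, and Abcb1a, from 2.45 ± 0.790 to 0.318 ± 0.209 TPM.

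Lymphoid genes were higher in MPP. Of 21 tested members of the lymphoid list 14 rose and 1 fell (median log2 change 1.34), where 11.2% of all genes rose. Satb1, a chromatin organiser of lymphoid progenitors, stood at 5.88, 3.50 and 5.08 TPM in LT-HSC and at 133, 118 and 98.1 TPM in MPP (log2 change 4.34, SE 0.21, adjusted p = 3.82e-09, limma). Cd53, a tetraspanin of leukocytes, rose from 6.97, 3.01 and 7.48 to 94.6, 90.9 and 99.5 TPM. For both every MPP library stood far above every LT-HSC library. Il7r, the interleukin 7 receptor on which lymphoid cells depend, was low in both, at 0.121, 0.105 and 0.246 TPM in LT-HSC and 3.89, 3.51 and 2.10 TPM in MPP, yet did not overlap. Btla, an inhibitory receptor of lymphocytes, rose from 0.0701, 0.00608 and 0.155 to 6.54, 5.70 and 5.17 TPM.

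Notch1 rose from 8.37 ± 2.48 to 32.9 ± 7.93 TPM, Rag2, a subunit of the antigen receptor recombinase, from 1.25 ± 0.343 to 5.41 ± 0.711 TPM, and Ccr9, a thymus homing receptor, from 0.110 ± 0.0954 to 3.55 ± 1.40 TPM. The B cell factor Ebf1, named after its values were seen, did not pass, at 0.306 ± 0.119 and 0.849 ± 0.317 TPM. Foxo1, the member that fell (log2 change -0.82, SE 0.22, adjusted p = 0.018, limma), lost its call without MPP library 2 (adjusted p = 0.0585) or MPP library 3 (0.064). Ikzf1 (Ikaros), already high in LT-HSC, was at 62.9 ± 17.4 and 99.3 ± 9.21 TPM and passed on the deposited scale alone (adjusted p = 0.039 against 0.079 on both) or without LT-HSC library 3 (0.039).

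Among myeloid genes 17 of 22 tested rose, and none fell (median log2 change 2.19). Mpo (myeloperoxidase), the granule enzyme first made in granulocyte and monocyte progenitors, stood at 9.10, 9.37 and 15.7 TPM in LT-HSC and at 380.2, 522 and 1336 TPM in MPP (log2 change 5.74, SE 0.44, adjusted p = 1.88e-06, limma). Ctsg (cathepsin G) stood at 1.57, 0.950 and 3.84 TPM in LT-HSC and at 54.6, 81.4 and 227 TPM in MPP, and Elane (neutrophil elastase) at 2.19, 4.30 and 5.66 and at 30.3, 33.3 and 173 TPM. MPP library 3 held the most of all 3 granule genes, and the least Dntt of the MPP libraries. Cebpa, the factor that sets the granulocyte and monocyte fate, rose from 0.417 ± 0.207 to 5.74 ± 1.73 TPM, Irf8, a monocyte and dendritic cell factor, from 0.726 ± 0.346 to 17.3 ± 4.19 TPM, and Csf1r, the receptor of macrophage colony stimulating factor, from 0.225 ± 0.130 to 5.42 ± 2.44 TPM. Without MPP library 3, 15 members rose. Markers of mature neutrophils did not follow: 1 of 9 tested rose (Cxcr2, a call kept only without LT-HSC library 3 among the fits that left out 1 library), and S100a8, an abundant protein of neutrophils, was at 15.2, 23.8 and 27.5 TPM in LT-HSC and 4.61, 5.81 and 14.8 TPM in MPP.

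Inflammatory chemokines were among the 12 largest rises. Ccl3 (MIP-1 alpha) stood at 20.2, 3.37 and 14.8 TPM in LT-HSC and at 647, 783 and 731 TPM in MPP (log2 change 5.99, SE 0.45, adjusted p = 1.42e-06, limma). Ccl4 (MIP-1 beta) stood at 25.5, 10.97 and 21.7 TPM and at 427, 632 and 512 TPM. In the RefSeq gene table Ccl3 (chr11:83647843-83649378) and Ccl4 (chr11:83648624-83664683) overlap, so reads of the overlap could be assigned to either. Cxcl10, the interferon-inducible chemokine, rose from 13.7, 9.38 and 24.1 to 258, 419.9 and 383 TPM. For all 3 chemokines the groups lay far apart, but no overlap was a condition of the rule that named them and is no result. Of 19 tested immediate early genes, which can rise when cells are handled, 1 rose (Ier3) and 1 fell (Klf4), against 11.2% and 5.62% of all genes, and Fos was at 1135, 492 and 765 TPM in LT-HSC and 838, 1139 and 935 TPM in MPP, groups that overlapped. The call of Ier3 was lost without MPP library 1 or 2 or LT-HSC library 3, and that of Klf4 without LT-HSC library 1 or MPP library 1 or 3. In the RXR knockouts Ccl3 was at 6.34 TPM in LT-HSC and 352 TPM in MPP (means, n = 3 each).

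Of 25 tested genes of cytokine receptors and their feedback 10 rose and 1 fell, where 11.2% of all genes rose and 5.62% fell. The list's median log2 change was 0.27 on the deposited and -0.0099 on the rescaled scale. These lie near the 0.26 and 0.0073 of all genes, so the list as a whole moved little against the rest. Il1r1, the interleukin 1 receptor, rose from 2.59, 1.27 and 2.68 to 23.5, 20.5 and 18.9 TPM (log2 change 2.82, SE 0.20, adjusted p = 1.69e-07, limma). Il10ra rose from 0.551, 0.106 and 0.467 to 3.31, 3.52 and 3.30 TPM, and Csf2rb, the shared chain of the IL-3, GM-CSF and IL-5 receptors, from 4.43, 2.20 and 2.63 to 11.6, 12.5 and 13.8 TPM. The MPP values of each lay within a narrow band above every LT-HSC value. Il6ra rose from 4.05 ± 0.961 to 11.5 ± 0.422 TPM, whereas its signalling partner Il6st was at 6.01 ± 2.13 and 6.33 ± 0.613 TPM and did not pass. Cish, a feedback inhibitor of cytokine signals, fell from 16.03, 6.36 and 6.74 to 4.36, 2.78 and 2.98 TPM. In the TGF-beta list, 2 of 16 rose and 2 fell (12.5% each), the first near the share over all genes. None rose without MPP library 1 and 1 without LT-HSC library 1 or MPP library 3, and 1 fell without LT-HSC library 1 or MPP library 1 or 2. Tgfbr3 (betaglycan), a co-receptor, fell from 18.3, 22.6 and 20.1 to 2.17, 3.06 and 3.08 TPM (log2 change -2.50, SE 0.18, adjusted p = 1.49e-06, limma).

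Adhesion molecules exchanged places. Of 20 tested, 8 rose (40%) and 4 fell (20%), where 11.2% of all genes rose and 5.62% fell. The list's median log2 change of 0.31 on the deposited and 0.072 on the rescaled scale lay near the 0.26 and 0.0073 of all genes. Itgal (LFA-1 alpha), an integrin of leukocytes, rose from 1.53, 1.08 and 1.93 to 22.96, 21.4 and 26.3 TPM (log2 change 3.30, SE 0.20, adjusted p = 4.22e-08, limma). Itgam (CD11b), often used to mark myeloid cells, rose from 1.79 ± 0.369 to 10.4 ± 0.485 TPM, and Cd44, the hyaluronan receptor, from 73.8 ± 26.8 to 191 ± 13.3 TPM. Cxcr4, which holds stem cells in the marrow, rose from 11.96 ± 3.24 to 23.7 ± 1.25 TPM. Itga5, the fibronectin receptor chain, fell from 15.4 ± 3.10 to 7.72 ± 0.879 TPM, and the semaphorin receptor Plxnc1 fell from 49.8, 40.0 and 30.2 to 10.01, 9.48 and 10.3 TPM. Among Wnt and Notch genes 2 of 20 rose (10%, near the share over all genes) and 4 fell (20%). The Wnt receptors Ryk and Fzd3 fell by 1.51 and 1.24 on the log2 scale, and the Notch pathway gene Dtx4 rose by 1.29. Of that list 2 members fell without LT-HSC library 1, MPP library 2 or MPP library 3, and 1 rose without LT-HSC library 2, LT-HSC library 3 or MPP library 3.

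Cell cycle genes were higher in MPP by modest amounts, and their counts moved with single libraries. Of 12 drivers of G1 3 rose, of 30 S phase genes 8, and of 30 G2 and M phase genes 9, and none of the 72 fell. These rises are 25%, 26.7% and 30% of each list, where 11.2% of all genes rose. The list medians were 0.62, 0.69 and 0.68 on the deposited scale and 0.35, 0.40 and 0.40 on the rescaled one, beside 0.26 and 0.0073 over all genes. LT-HSC library 3 had the highest level among the LT-HSC libraries for most of them, and without it 6 G1 drivers, 16 S phase and 19 G2 and M phase genes rose and the G1 driver Ccnd2 (cyclin D2) fell (log2 change -0.54, adjusted p = 0.0355, limma). Without LT-HSC library 2, 1 G1 driver fell. The S phase count was 1 without LT-HSC library 2, 2 without LT-HSC library 1 or MPP library 3, 3 without MPP library 1 and 4 without MPP library 2, and the G2 and M phase count was 6 without LT-HSC library 1. Cdk6, the kinase that times the exit of stem cells from rest, had the largest rise of the G1 drivers, from 31.3, 30.5 and 51.8 to 109.5, 133 and 116 TPM (log2 change 1.67, SE 0.23, adjusted p = 0.00014, limma). Kif23, a motor of the dividing cell's midzone, rose from 12.9, 10.5 and 13.2 to 32.4, 32.05 and 28.8 TPM, and Ect2, its partner in cytokinesis, from 5.32, 7.57 and 5.98 to 23.1, 21.01 and 16.9 TPM. Mki67, the proliferation antigen, was at 82.2, 62.8 and 136 TPM in LT-HSC and 140.2, 143 and 152 TPM in MPP, a difference that did not pass (adjusted p = 0.17) except without LT-HSC library 3 (0.020).

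Of 14 genes linked to quiescence 3 fell and 3 rose (21.4% each), where 5.62% of all genes fell and 11.2% rose. Beside Cdkn1c, Txnip, an inhibitor of glucose uptake, fell from 183 ± 64.1 to 83.8 ± 17.3 TPM, and Fhl1 from 21.6 ± 5.77 to 5.54 ± 1.75 TPM. Cdkn1b (p27), Btg2 and Ccng2, which also restrain division, were called higher, but none of them without MPP library 2, where the adjusted p was 0.111, 0.0786 and 0.0882. Cdkn1b also lost it without LT-HSC library 1 or 3 or MPP library 1 (0.0863 to 0.142), and Ccng2 without LT-HSC library 1 or 3 or MPP library 3 (0.0779 to 0.0861). Cdkn1a (p21) stood at 112, 28.3 and 71.7 TPM in LT-HSC and at 192, 123 and 131 TPM in MPP and did not pass (adjusted p = 0.19, limma).

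Genes of growth and energy showed little. None of 24 ribosome biogenesis genes was called (limma), with 3 higher at an unadjusted p under 0.05 and 5 called higher without LT-HSC library 3. In the other lists 1 of 36 oxidative phosphorylation genes rose, or 2 without LT-HSC library 3, and 1 of 20 glycolysis genes rose and 1 fell, shares below those of 11.2% and 5.62% over all genes. Without LT-HSC library 2 the glycolysis counts were 2 and 4, and none fell without LT-HSC library 3 or MPP library 1 or 2. Npm1 (nucleophosmin) was at 1103, 641 and 1363 TPM in LT-HSC and at 1309.6, 1311 and 1658 TPM in MPP, groups that overlapped. Pgam1, the phosphoglycerate mutase, was the glycolytic gene that rose, from 22.3 ± 7.48 to 71.0 ± 1.68 TPM (log2 change 1.68, SE 0.22, adjusted p = 6.4e-05, limma). The oxidative phosphorylation median was 0.28 on the deposited scale and -0.02 on the rescaled one, so its sign depends on the scale.

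Among 23 DNA methylation and chromatin regulators 5 rose (21.7%) and 4 fell (17.4%), where 11.2% of all genes rose and 5.62% fell. Setbp1, a SET binding protein, fell from 2.19, 1.52 and 1.04 to 0.164, 0.0793 and 0.0834 TPM (log2 change -1.20, SE 0.19, adjusted p = 0.00051, limma), and the RNA binding protein Igf2bp2 from 4.03, 2.99 and 2.33 to 0.397, 0.545 and 0.387 TPM. The chromatin remodeller Chd7 fell from 4.38 ± 1.71 to 1.16 ± 0.439 TPM. Ezh2, the methyltransferase of Polycomb complex 2, rose from 43.0 ± 12.1 to 80.5 ± 1.04 TPM (log2 change 0.92, SE 0.23, adjusted p = 0.011, limma) and was the member with the smallest adjusted p among those that rose. The count that rose was 1 without MPP library 1 or 2, 2 without MPP library 3 or LT-HSC library 1, and 3 without LT-HSC library 2 or 3.

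**Figure D3:**
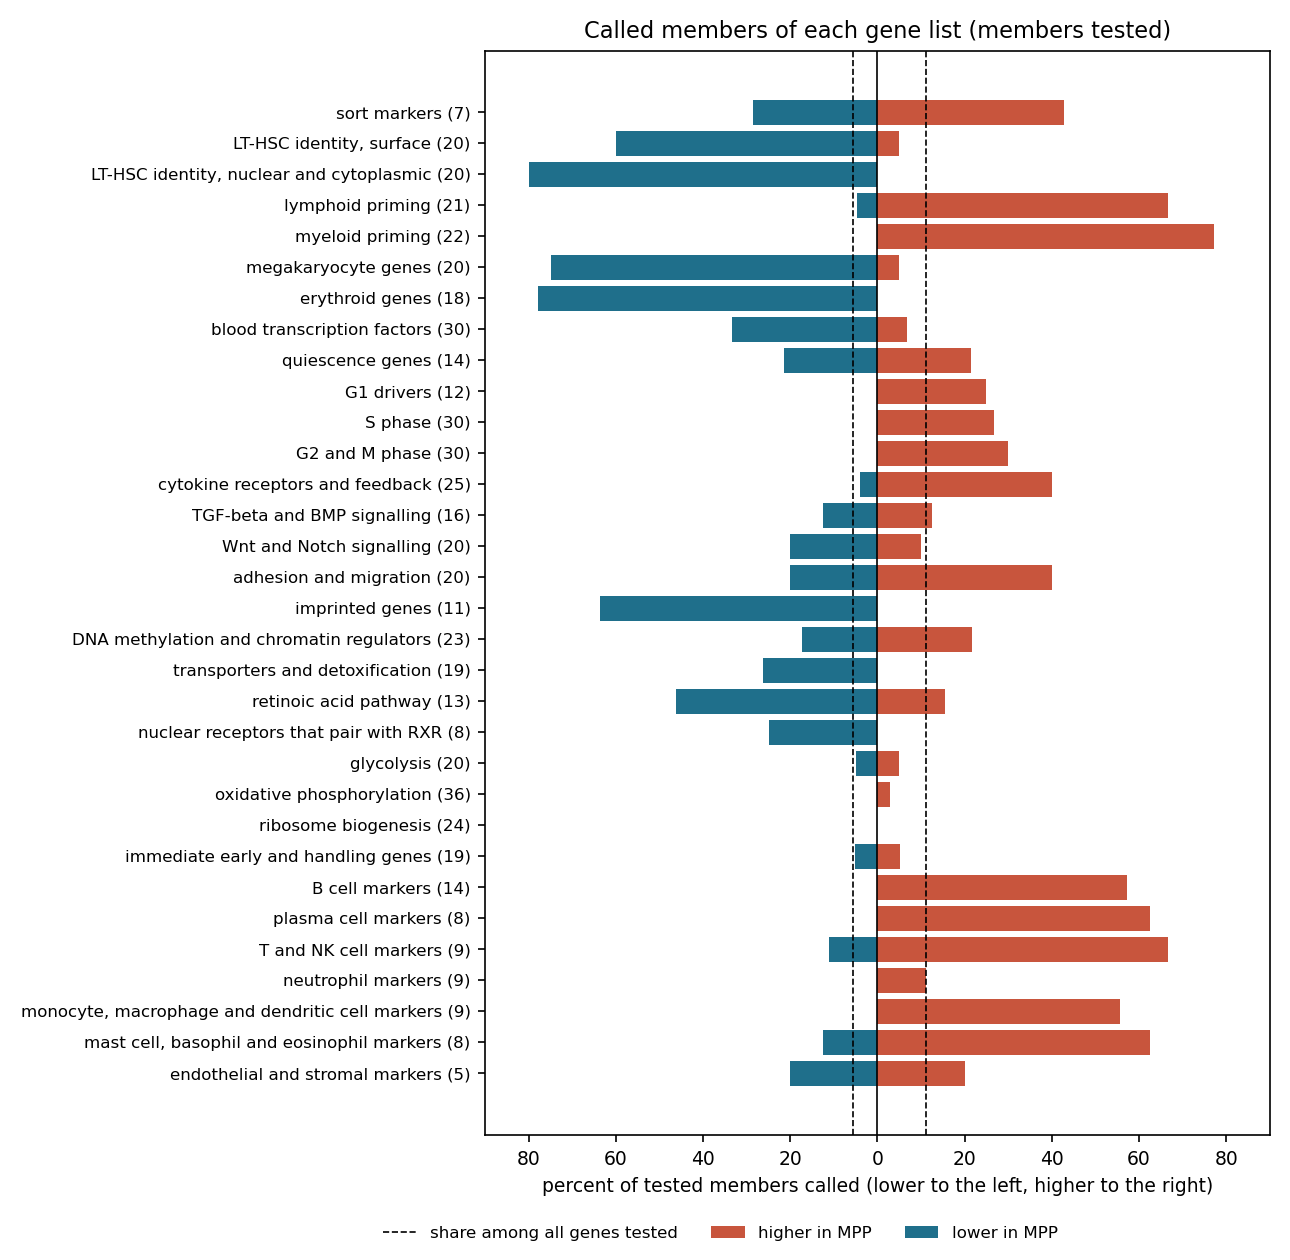
Share of the tested members of each of the 32 gene lists called lower (blue, left) or higher (red, right) in MPP, in percent, with the number tested in brackets and the shares over all genes as dashed lines (5.62% lower, 11.2% higher). LT-HSC, megakaryocyte, erythroid and imprinted genes reach farthest to the left, and myeloid, lymphoid and T and NK cell genes farthest to the right.

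Some markers of mature cells that a sort could carry along were also higher in MPP, above all immunoglobulin genes. TPM summed over 26 immunoglobulin identifiers were 506.5, 3.41 and 273.6 in LT-HSC and 38400, 37893 and 5229 in MPP. Ighm, the heavy chain of IgM, stood at 0.850, 0.459 and 1.57 TPM in LT-HSC and at 2236, 1988 and 532 TPM in MPP, and Jchain, the joining chain of secreted antibody, at 4.92, 0.153 and 3.31 and at 157, 139.5 and 27.8 TPM (log2 change 4.80, SE 0.75, adjusted p = 0.0014, limma). MPP library 3 was the lowest MPP library for both. Defining genes of mature B cells were near 0 beside them: Ms4a1 (CD20) was at 0, 0.0099 and 0 TPM in LT-HSC and 0.146, 0.280 and 0.0132 TPM in MPP, and Pax5 reached at most 0.537 TPM in any of the 6 libraries. Without the immunoglobulin constant genes, 17 B cell markers summed to 193 to 389 TPM in LT-HSC and 547 to 717 TPM in MPP, with 6 of them under 1 TPM everywhere. Of 14 tested B cell markers 8 rose, or 4 without LT-HSC library 2, MPP library 1 or MPP library 2, and of 8 tested plasma cell markers 5 rose, or 3 without MPP library 1. Among immunoglobulin and T cell receptor segments, 20 of 31 tested identifiers rose, and 1640 genes were higher without them.

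Of 9 tested T and NK cell markers 6 rose and 1 fell (Klrb1c, a receptor of NK cells). Trbc1, a constant region of the T cell receptor, stood at 0.226, 0 and 0.394 TPM in LT-HSC and at 11.96, 6.38 and 69.6 TPM in MPP, while Cd3e, the invariant chain of that receptor, was under 1 TPM in all 6 libraries. Of 9 monocyte, macrophage and dendritic cell markers 5 rose, with Adgre1 (F4/80) and C1qa under 1 TPM everywhere, and of 8 mast cell, basophil and eosinophil markers 5 rose and 1 fell (Gata2), with a rise of Cpa3, a protease of mast cells and their progenitors, from 4.29, 2.38 and 2.78 to 16.2, 18.1 and 60.3 TPM. Of 5 endothelial and stromal markers 1 rose, Pdgfrb, from 0.943 ± 0.116 to 8.18 ± 0.778 TPM, and 1 fell, Vwf, or 2 without LT-HSC library 3. The summed level of the endothelial list was 36.2 to 57.2 TPM in LT-HSC and 14.7 to 16.9 TPM in MPP, with Cdh5, Plvap, Cxcl12, Col1a1 and Bglap under 1 TPM in all 6 libraries. Vwf, also a gene of LT-HSC and platelets, made up most of that sum in every LT-HSC library. The rest of the list summed to less in every LT-HSC library than in any MPP library, and Pdgfrb was most of that rest in MPP. Sums of other lists overlapped between the groups. They were 124 to 254 TPM in LT-HSC and 209 to 213 TPM in MPP for the monocyte, macrophage and dendritic cell list. For the mast cell, basophil and eosinophil list they were 48.9 to 88.8 and 52.5 to 108 TPM, and for the neutrophil list 38.4 to 62.7 and 18.9 to 46.7 TPM. The part of mature cells in the lymphoid and myeloid differences was not tested.

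Splicing was measured as percent spliced in (PSI), the share from 0 to 1 of an examined junction among the junctions that compete with it. Of 39715 events with a value in all 12 libraries of batch 1, 91 (0.229%) had higher and 102 (0.257%) lower PSI in MPP, together 0.486% of events. Calls needed a limma adjusted p under 0.05 with group means at least 0.1 apart. Without LT-HSC library 2 there were 53 events with higher PSI, and without MPP library 3 there were 160 higher and 196 lower. With the replicate number as a term in the fit, 5 of the 193 calls were kept, 4 of them outside intron retention. The adjusted p-values of events below are from the fit without that term, and nearly all the calls named were lost with it. Among alternative promoters, calls numbered 25 of 1063 events (2.35%) in 16 genes, against 20 of 6484 cassette exons (0.308%) and 134 of 23996 retained introns (0.558%). The opposite junctions of one gene are often separate events, so event counts exceed the number of switches.

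Several first exons were used in LT-HSC and little or not in MPP. Promoters of first exons whose use changed are shown, since the junctions compared start downstream of them. In the windows printed, the splice donor lay 81 to 777 bases after the RefSeq start. For 13 of the 16 genes RefSeq places a transcription start within 1000 bases before the splice donor, giving 17 starts: 10 of first exons used less in MPP and 7 of first exons used more. The 250 bases before 7 of these starts follow, from RefSeq's GRCm38.p6 table, 5′ to 3′ on the strand of the gene, with the E-box CAGCTG, letters that bHLH factors can bind, in capitals.
Mllt3 internal first exon, less used in MPP, chr4:87806324-87806573, minus strand: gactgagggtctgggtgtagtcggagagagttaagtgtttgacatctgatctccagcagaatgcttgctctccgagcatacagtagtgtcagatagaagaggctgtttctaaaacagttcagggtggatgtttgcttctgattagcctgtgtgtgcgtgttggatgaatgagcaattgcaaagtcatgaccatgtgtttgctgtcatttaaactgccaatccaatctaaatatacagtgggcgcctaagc
Mllt3 upstream first exon, more used in MPP, chr4:88033408-88033657, minus strand: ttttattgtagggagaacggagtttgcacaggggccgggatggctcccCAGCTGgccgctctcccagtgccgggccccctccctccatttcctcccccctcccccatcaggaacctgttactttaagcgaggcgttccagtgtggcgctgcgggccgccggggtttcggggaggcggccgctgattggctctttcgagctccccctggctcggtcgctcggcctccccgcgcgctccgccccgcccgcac
Acot7, less used in MPP, chr4:152185358-152185607, plus strand: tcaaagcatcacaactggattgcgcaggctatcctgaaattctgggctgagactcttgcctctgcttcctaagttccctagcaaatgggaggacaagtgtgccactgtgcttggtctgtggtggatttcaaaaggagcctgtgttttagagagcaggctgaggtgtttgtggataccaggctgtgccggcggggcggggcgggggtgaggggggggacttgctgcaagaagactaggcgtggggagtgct
Phactr2, less used in MPP, chr10:13324290-13324539, minus strand: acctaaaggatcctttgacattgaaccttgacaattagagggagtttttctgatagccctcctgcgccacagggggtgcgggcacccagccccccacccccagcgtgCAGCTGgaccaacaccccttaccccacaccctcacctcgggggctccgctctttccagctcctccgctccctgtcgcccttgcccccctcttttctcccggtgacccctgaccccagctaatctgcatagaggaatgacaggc
Pik3r1, less used in MPP, chr13:101692631-101692880, minus strand: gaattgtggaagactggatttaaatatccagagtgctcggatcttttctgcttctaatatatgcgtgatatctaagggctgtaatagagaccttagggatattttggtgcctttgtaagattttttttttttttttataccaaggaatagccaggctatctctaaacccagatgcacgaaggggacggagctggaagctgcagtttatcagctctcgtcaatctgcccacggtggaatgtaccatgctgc
Serpinb6a, less used in MPP, chr13:33936084-33936333, minus strand: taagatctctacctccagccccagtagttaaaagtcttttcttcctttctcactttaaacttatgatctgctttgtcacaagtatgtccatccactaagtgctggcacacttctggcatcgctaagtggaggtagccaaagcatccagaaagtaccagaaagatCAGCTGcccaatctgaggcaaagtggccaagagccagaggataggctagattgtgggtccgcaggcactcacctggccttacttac
Abcg2, less used in MPP, chr6:58640296-58640545, plus strand: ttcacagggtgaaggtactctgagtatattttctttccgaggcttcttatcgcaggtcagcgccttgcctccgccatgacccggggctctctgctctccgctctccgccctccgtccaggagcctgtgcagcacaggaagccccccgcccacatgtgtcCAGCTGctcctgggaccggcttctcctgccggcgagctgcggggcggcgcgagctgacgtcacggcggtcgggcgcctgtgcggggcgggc
The E-box, the same on both strands, was present in 4 of the 10 windows of first exons used less in MPP and in 1 of the 7 used more, and in 13.001% of 32851 RefSeq promoter windows of the same length. The other 4 motifs were searched on both strands in the same windows. AGATAA, a motif of GATA factors, was in 1 of 10 and 0 of 7, against 9.99% of all; CAGGAAG (ETS factors) in 2 of 10 and 3 of 7, against 10.8%. TGTGGT (RUNX factors) was in 1 of 10 and 1 of 7, against 14.05%, and AGGTCA (a nuclear receptor half-site) in 1 of 10 and 0 of 7, against 14.02%. The less used exons of Abcg2, Adgrg1 and Arhgdib and the more used exons of Foxp1 and Mgst2 were classed from the competing junction, since only that was called. The 7 windows printed hold the E-box more often than all 17 do. With so few windows these shares are a description and carry no test.

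Mllt3 had the clearest switch. The junction from its internal first exon E10.4 to E11.1 (donor at chr4:87806211, 112 bases after the RefSeq start of the first Mllt3 window) had PSI of 0.507, 0.527 and 0.565 in LT-HSC and 0.0111, 0.0441 and 0.0213 in MPP, a difference of -0.507 (SE 0.029, adjusted p = 0.00033, limma). The competing junction from upstream exon E8.7 rose from 0.478, 0.428 and 0.400 to 0.989, 0.929 and 0.920. In LT-HSC about as many junction reads thus came from the internal start as from upstream, and in MPP almost all came from upstream. RXR knockouts had 0.432, 0.428 and 0.518 in LT-HSC and 0.0154, 0.0167 and 0.0341 in MPP, and the LT-HSC of Cre controls had a mean of 0.337. At the gene's 5′ end the first exon E1.2, that of the second Mllt3 window, rose from 0.535, 0.558 and 0.398 to 0.833, 0.810 and 0.833 against E2.1, but that call was lost without LT-HSC library 1 or any 1 MPP library (adjusted p from 0.0546 to 0.0875).

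Acot7, Phactr2 and Pik3r1 switched first exons too. Acot7, an acyl-CoA thioesterase, used E3.2 at a PSI of 0.627, 0.565 and 0.421 in LT-HSC and 0.0185, 0.0571 and 0 in MPP (difference -0.512, SE 0.053, adjusted p = 0.0053, limma). Phactr2, a phosphatase and actin regulator, used E4.2 at 0.552, 0.537 and 0.594 in LT-HSC and 0.149, 0.0694 and 0.10 in MPP (difference -0.455, SE 0.058, adjusted p = 0.012). Neither gene passed the test of expression: Acot7 was at 24.3 ± 10.3 and 38.3 ± 5.49 TPM and Phactr2 at 18.7 ± 5.35 and 18.9 ± 0.871 TPM. Pik3r1, the regulatory subunit of PI3 kinase, named here as an alternative promoter gene after its values were seen, used E9.1 at 0.383, 0.291 and 0.355 in LT-HSC and 0.0723, 0.0779 and 0.0512 in MPP (adjusted p = 0.0036). RXR knockouts had the same order in all 3 genes: 0.565 to 0.646 against 0.0185 to 0.143 for Acot7, 0.500 to 0.762 against 0.104 to 0.179 for Phactr2, and 0.319 to 0.358 against 0.0293 to 0.0379 for Pik3r1. The LT-HSC of Cre controls had means of 0.569 for Acot7 and 0.545 for Phactr2. Whether the genotypes differ in PSI was not tested.

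Med12l, a subunit of the kinase module of Mediator, moved from the upstream junction E17.1 to E20.1, at 0.889, 0.964 and 0.910 in LT-HSC and 0.337, 0.330 and 0.258 in MPP, to a junction that starts within intron 19 (difference -0.613, SE 0.048, adjusted p = 0.0013, limma), while its TPM fell from 17.9 ± 2.34 to 4.75 ± 0.637. Serpinb6a, a protease inhibitor, used E6.7 at 0.848, 0.661 and 0.538 in LT-HSC and 0, 0.286 and 0 in MPP, a call lost without LT-HSC library 1 or 2 or MPP library 1 or 3 (adjusted p from 0.0684 to 0.107). Abcg2 shifted to its upstream first exon E5.2, from 0.314, 0.193 and 0.123 to 0.595, 0.490 and 0.727, but lost its call without LT-HSC library 2 or 3 or MPP library 1 or 3 (0.0684 to 0.144), and the knockouts had means of 0.358 and 0.404.

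The 20 called cassette exon events lay in 15 genes. In Mbnl1 (muscleblind), a splicing factor, the junction from E2.1 to E3.1 fell from 0.551, 0.560 and 0.573 to 0.292, 0.327 and 0.328 (difference -0.246, SE 0.027, adjusted p = 0.0059, limma), and that from E1.1 to E3.1 rose from 0.173, 0.169 and 0.174 to 0.393, 0.356 and 0.392. The LT-HSC of Cre controls, whose RXR is also intact, had means of 0.371 and 0.357 for these junctions, nearer to the MPP than to the LT-HSC of floxed controls. In knockouts the differences were -0.161 (adjusted p = 0.049, limma) and 0.093 (adjusted p = 0.32). The TPM of Mbnl1 did not pass the test, at 95.5 ± 28.03 and 103 ± 5.38. Among 44 splicing factor and regulator genes listed, 36 had events, and 5 of their 357 events were called. Adam15, a transmembrane metalloprotease, included its exon 18 part (E16.1 to E18.1) more, from 0.307, 0.286 and 0.328 to 0.759, 0.745 and 0.659 (difference 0.414, SE 0.034, adjusted p = 0.0015, limma). Epb4.1l2, a membrane skeleton protein, used the junction from E15.2 to E17.1 at 0.409, 0.528 and 0.353 in LT-HSC and at 0.0400, 0 and 0 in MPP, with an adjusted p of 0.018, or 0.0524 without MPP library 2. Means in the LT-HSC of Cre controls were 0.316 for Adam15 and 0.411 for Epb4.1l2.

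**Figure D4:**
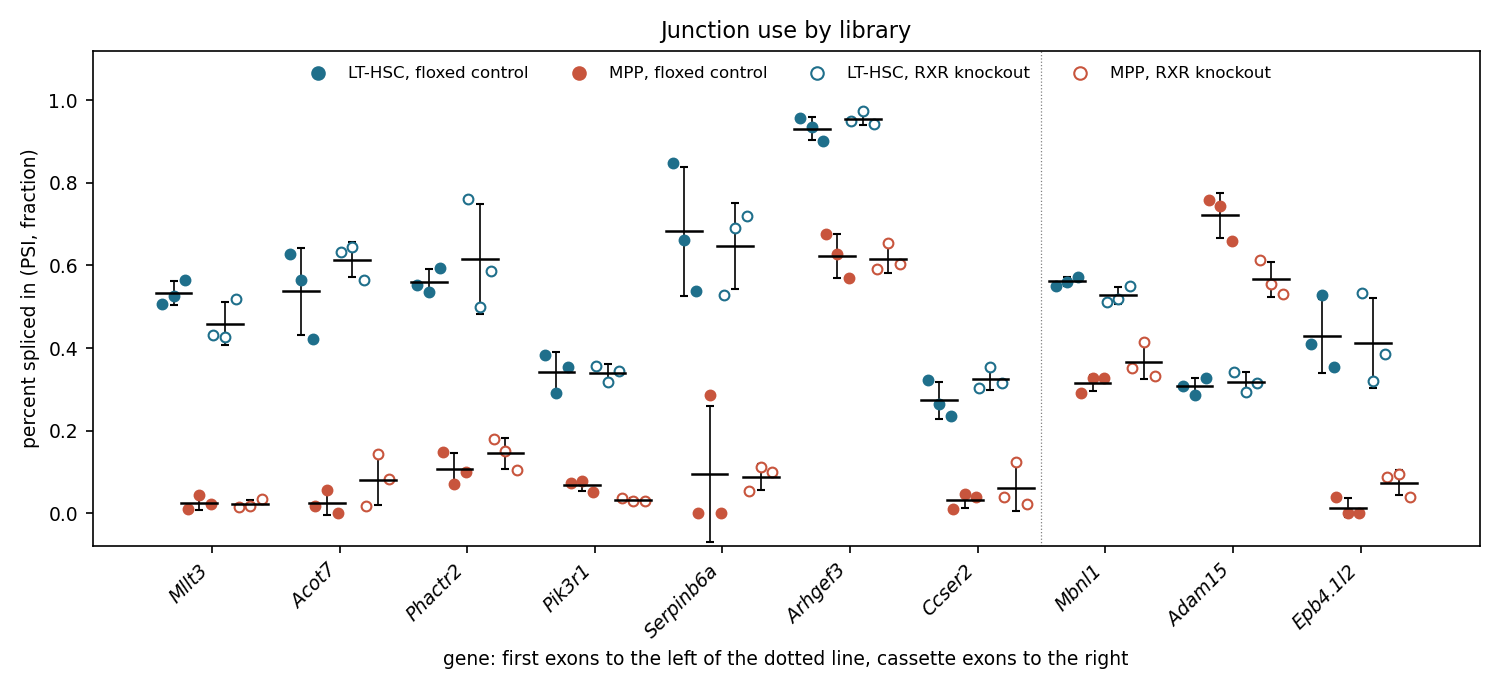
PSI of 10 called junctions in each library, with the mean and SD in black: LT-HSC in blue and MPP in red, floxed controls filled and RXR knockouts open, with first exons left of the dotted line and cassette exons right of it. Floxed control groups do not overlap for any of the junctions shown, but these were chosen from events called in the same libraries, so that is no result. The share of events without overlap was not counted over all events.

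Retained introns made up 134 of the 193 calls. Of the 59 calls outside intron retention (0.375% of those events) 54 had the same sign in RXR knockouts, among them 25 of 25 alternative promoter events, against 79 of 134 for retained introns. The others are not all opposite: some, such as the called introns of Hif1a and Ccng2, had a difference of 0 in knockouts. The same count over all events was not made. Zfyve21 is an example: its intron 7 to exon 8 junction was at 0 in all 3 LT-HSC libraries and at 0.692, 0.696 and 0.588 in MPP (adjusted p = 0.039, limma), while knockout LT-HSC had 0.571, 0.459 and 0.357 and Cre control LT-HSC a mean of 0. That call was lost in each fit without 1 of the 6 libraries (adjusted p from 0.0545 to 0.116). Trpv2, a cation channel gene, spliced out its intron 2 at 0.900, 0.931 and 1.00 in LT-HSC and at 0.413, 0.262 and 0.429 in MPP, against 0.436, 0.532 and 0.554 in knockout LT-HSC. Whether unprocessed or genomic sequence contributes to these events was not tested.

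The RXR knockouts gave the same comparison in libraries that share none of the 6. Both comparisons came from the same fit with a shared estimate of spread, so their calls are not independent. Of the 1660 genes higher in MPP of floxed controls, 490 (29.5%) were called higher there as well, which is 83.2% of the 589 called higher in knockouts (3.97% of genes tested). Of the 834 lower genes 713 (85.5%) were called lower again, or 39.6% of the 1803 called lower there (12.2%). Direction alone was the same for 1233 of the 1660 higher genes (74.3%) and for 826 of the 834 lower genes (99.0%) on the deposited scale, and for 1450 (87.4%) and 821 (98.4%) on the rescaled one. The median log2 change of all genes was -0.20 in knockouts and 0.26 in floxed controls on the deposited scale, which moves the 2 counts in opposite ways, and 0.0022 and 0.0073 on the rescaled one.

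The lists were also counted in knockouts. Of the LT-HSC lists, 18 of 20 surface and 19 of 20 nuclear and cytoplasmic genes fell in knockouts, as did 18 of 20 megakaryocyte and 9 of 11 imprinted genes. Myeloid genes rose in 16 of 22 and lymphoid genes in 12 of 21, where 2 fell. Of 8 plasma cell markers none was called in knockouts (limma), with 1 higher at an unadjusted p under 0.05, and Igkc, the kappa light chain constant gene, was at 854, 346 and 435 TPM in knockout LT-HSC, above the 204, 0.954 and 75.5 TPM of floxed LT-HSC. A test of the difference between genotypes in the MPP against LT-HSC change called 4 genes of 14839 (0.027%), and leaving out single libraries of the 12 gave 0 to 7 (limma). At an unadjusted p under 0.05, 1077 differences were positive and 47 negative.

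**Figure D5:**
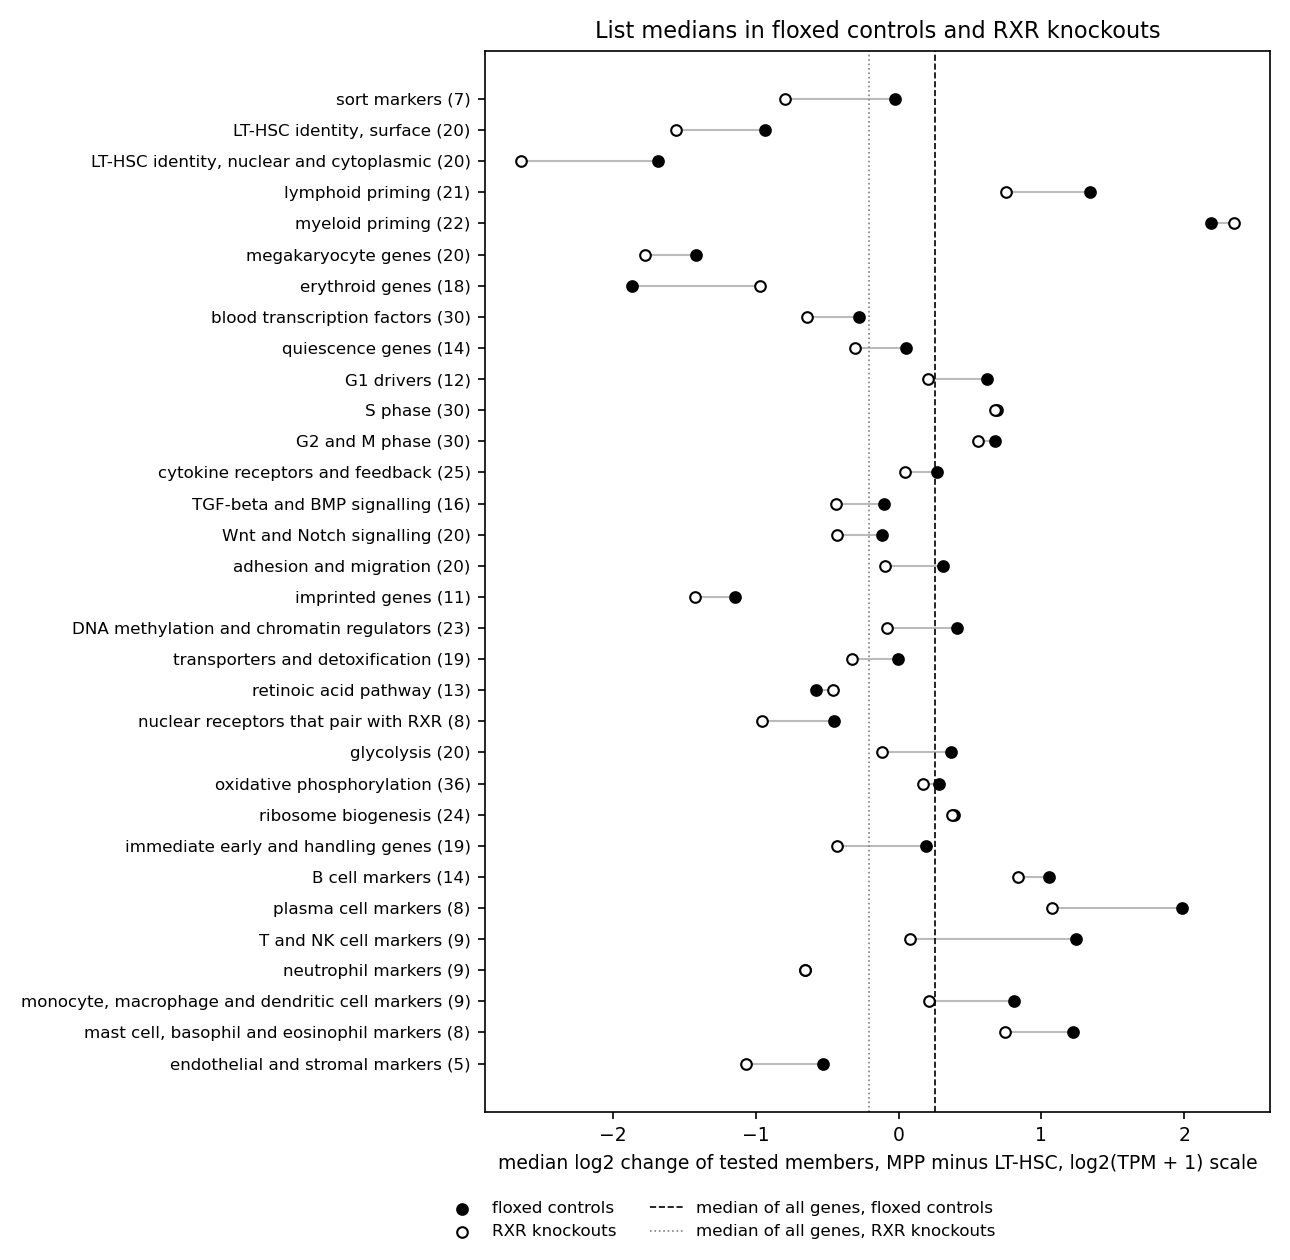
Median log2 change (MPP minus LT-HSC, log2(TPM + 1) scale) of the tested members of each gene list in floxed controls (filled) and RXR knockouts (open), with the medians of all genes as lines (0.26 dashed, -0.20 dotted). LT-HSC, megakaryocyte and imprinted lists lie left of both lines in both genotypes, and the erythroid list moves from -1.87 in floxed controls to -0.97 in knockouts.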

How the data were processed

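Bulk RNA-seq of sorted mouse bone marrow cells was analysed from a gene table and a splicing table that hold all 21 libraries. The gene table holds TPM, a length-scaled abundance, that the authors deposited, and kallisto and mm10 are named in the submitters' processing notes. The splicing table holds PSI, a fraction from 0 to 1 that the authors deposited for events they had selected. STAR 2.6 is named in the submitters' processing notes. No source used here says which program called the events or how many reads an event needed. Neither table gives reads, so the depth is unknown, no interval from counting could be given and no count test was run.

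Genes that reached 1 TPM in 3 or more of the 12 batch 1 libraries entered limma 3.58.1 (R 4.3.3, intensity trend) on log2(TPM + 1), with 1 group mean per cell type and genotype, once on deposited TPM and once on TPM divided by median-of-ratios size factors. P-values were adjusted by Benjamini and Hochberg over all 14839 genes. Splice events with a value in all 12 libraries were tested by limma on PSI. The fits were tested on simulated data first. Summaries and figures were made in Python 3.11.15 with pandas 2.3.3, numpy 2.4.6, scipy 1.17.1 and matplotlib 3.10.9. Gene names, positions, promoters and starts came from RefSeq tables of GRCm38.p6, which gave a symbol for 94.7% of the 28987 identifiers.

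The 32 gene lists and the groups compared were chosen with earlier results of these data known, so a list is described by its counts and median beside those of all genes and has no test of its own. Genes were named by rule: the 4 markers of the sort, the 12 largest rises and 12 largest falls among called genes with a symbol and no overlap (no gene models or antigen receptor segments), all members of lists with up to 15 tested, and otherwise the first 6 and the 6 largest called changes each way. Events were named as the 10 largest called differences each way outside intron retention and 3 within it, and those of listed splicing genes. Other genes named beside them were chosen after their values were seen. Alternatives covered the scale, pseudocount, filter, libraries in the fit, replicate number and each library left out. Leaving libraries out of the genotype comparison and of the list counts was chosen after seeing the data. Libraries of RXR knockouts of batch 2 and of those with Myc were not used here. A few named genes are not reported here, though they count in the lists.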

Additional observations from a re-analysis of the deposited data

Results flagged for a closer look

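For 4 genes the MPP against LT-HSC change differed between floxed controls and RXR knockouts by limma's test of the difference itself. Cd83, a surface protein of activated lymphocytes and dendritic cells, was at 0.242, 0.189 and 0.0990 TPM in floxed LT-HSC and at 3.87, 3.46 and 2.85 TPM in floxed MPP. In knockouts it was at 0.0672, 0.303 and 0.0652 TPM in LT-HSC and 0.204, 0.423 and 0.207 TPM in MPP, so MPP stood apart in floxed controls alone, with a difference of 1.74 on the log2 scale (adjusted p = 0.035, limma). Gda, guanine deaminase, was at 15.4, 14.2 and 8.47 TPM in floxed LT-HSC and at 0.439, 0.469 and 1.30 TPM in floxed MPP. Knockout libraries had 0.551, 1.60 and 3.04 TPM in LT-HSC and 1.47, 1.16 and 2.71 TPM in MPP, and LT-HSC of Cre controls had 26.5, 25.2 and 10.5 TPM. The difference for Gda was -3.07 (adjusted p = 0.035, limma), and the LT-HSC value was high in both groups without RXR deletion.

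Gm11011, a predicted gene, was at 4.58, 4.08 and 3.88 TPM in floxed LT-HSC and at 25.6, 17.7 and 16.6 TPM in floxed MPP, against 12.4, 11.2 and 17.96 and 9.60, 7.59 and 8.13 TPM in knockouts (difference 2.63, adjusted p = 0.038, limma). Olfr632, an olfactory receptor gene, was at 1.13, 1.27 and 1.52 TPM in floxed LT-HSC and listed at 0 in all 3 floxed MPP libraries. In knockouts it was at 9.01, 13.6 and 16.8 TPM in LT-HSC and 0.0269, 0 and 0.179 TPM in MPP (difference 2.49, adjusted p = 0.035, limma). Without LT-HSC floxed library 3 the test called 7 genes, among them Gda, Olfr632 and Cd83. Without knockout LT-HSC library 1 it called Olfr632 alone, without knockout LT-HSC library 3 Gda alone, and without any other of the 12 libraries it called 0 (limma).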

How the results depend on the processing

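The count of 834 lower genes moved with the scale: rescaled TPM alone gave 1850, and TPM without the most abundant identifier gave 1647. Leaving out 1 floxed control library gave 1018 to 2046 higher and 586 to 1025 lower genes, and the 1660 higher genes fell to 1018 without MPP library 2 and to 1030 without MPP library 1. Of the 2494 called genes, 1879 were still called with no filter on low values, 2468 with a pseudocount of 0.1, 1684 in the fit of the 6 floxed control libraries and 2208 without the most abundant identifier, and none changed sign. The 4 genes that differed between genotypes became 12 on deposited TPM, 7 with no filter, and 0 with a pseudocount of 0.1 or without the most abundant identifier (limma, 1077 positive and 47 negative at an unadjusted p under 0.05 as first fitted). Leaving out single libraries gave 0 to 7. The cause was not tested.

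Of the 91 higher and 102 lower splice events, 29 and 30 lay outside intron retention. A fit without intron retention events called 28 higher and 40 lower, and kept 57 of those 59 calls. With all events, leaving out 1 library gave 53 to 160 higher and 68 to 196 lower events. Of the 59 calls outside intron retention, 22 were called on the log odds of PSI and 17 in the fit of the 6 floxed control libraries. With the replicate block there were 2010 higher and 1063 lower genes (2429 of the 2494 calls), 2 higher and 4 lower splice events (5 of the 193 calls), and 0 genes that differed between genotypes. Nearly all the splice calls named were thus lost with it. Same-numbered LT-HSC and MPP libraries shared little, with correlations of deviations of 0.076, 0.05 and 0.084, all positive but under 0.1, so the numbers were not taken as pairs. With so few libraries these correlations cannot exclude pairing. The column names carry the same numbers in both cell types, but no label says that the animals were shared. LT-HSC libraries 1 and 3 correlated best with their own number, and LT-HSC library 2 with MPP library 1 (0.076).

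Over 284 single genes and events, 3220 of 3627 alternatives left the direction and the side of the threshold as reported, 366 lost the call, 41 gained one and 0 reversed. With no read counts in the tables, the precision of low TPM and of each PSI is unknown.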

Other observations

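Among the 12 largest rises were genes outside the lists described. Wfdc17, a secreted protein of myeloid cells, was at 9.67, 2.84 and 5.39 TPM in LT-HSC and 248, 212 and 150.5 TPM in MPP (log2 change 4.97, SE 0.34, adjusted p = 1.49e-07, limma). Cd52, a surface glycopeptide of leukocytes, rose from 8.84, 4.22 and 9.08 to 205, 199.6 and 174 TPM. Tyrobp (DAP12), a signalling adaptor of myeloid and NK cells, rose from 6.67, 1.69 and 5.12 to 111, 96.3 and 150.4 TPM, and BC035044 from 0.319, 0.225 and 0.330 to 33.1, 33.5 and 39.9 TPM. Lack of overlap between the groups was a condition of the rule that named these 4 genes, and is no result.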
